A study of Mus musculus with 24 samples.

Results

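The 3 libraries described here hold RNA of untreated alveolar macrophages, and were chosen by their treatment label out of 24 libraries in 8 treatment groups. All groups were primary alveolar macrophages of wild-type BALB/cJ mice, with a time label of 20 h that in the stimulated groups counts from the addition of recombinant IL-13, IL-17A, IL-33 or mixtures of these cytokines. The untreated cells received none of them, and no stimulated group is compared with them below. The labels do not say whether the 3 libraries came from separate mice, pooled mice or parallel cultures, so the spread between them may be technical. All values are levels in 1 group, and no test or p-value is given.

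Alveolar macrophages are the resident phagocytes of the air spaces. They depend on the cytokine GM-CSF and on the nuclear receptor PPAR-gamma, and they take up and degrade surfactant, inhaled particles and dying cells. Much of that work is done in the lysosome, where the vacuolar ATPase acidifies the lumen and cathepsins, lipases and glycosidases cut their substrates.

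Each deposited table gave TPM, a share of transcripts normalised to length, for 17017 genes, of which 13182 are protein-coding. The length behind these TPM values was that of the whole gene with its introns, which was 5.20 times the summed exons in the median. Genes were therefore compared on 3 scales. Reads are TPM multiplied by the deposited length and divided by the value of 1 read, and show how much of a library a gene took. The level is reads per kb of exon, scaled to a sum of 1000000 over the 13173 protein-coding genes with annotated exons, and is the scale on which genes are compared with each other. Deposited TPM is the authors' own value. Recovered reads came to 9.28 M in replicate 1, 10.8 M in replicate 2 and 10.5 M in replicate 3, and 98.6% to 98.7% of them lay in protein-coding genes. On an exon length of 1 kb, 1 read stood for a level of 0.332 to 0.367. Values after ± are SDs over the 3 libraries (n = 3).

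Replicate 1 stood apart from the other libraries by exon length. Over the 8654 genes with a mean of at least 100 reads, the decile with the shortest summed exons (383 to 1937 bases) had a median ratio of reads of 1.11 between replicates 1 and 2 and of 1.14 between replicates 1 and 3. In the decile with the longest exons (10313 to 123179 bases) these ratios were 0.854 and 0.865. Between replicates 2 and 3 the ratios were 1.02 and 1.01. Replicate 1 thus held relatively more reads of short genes and fewer of long genes, at totals scaled to be equal. Across genes, log2 reads correlated with Pearson r = 0.992, 0.991 and 0.997 for replicates 1 and 2, 1 and 3, and 2 and 3. This is a description across genes, which are not independent replicates and share their libraries.

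**Figure D1:**
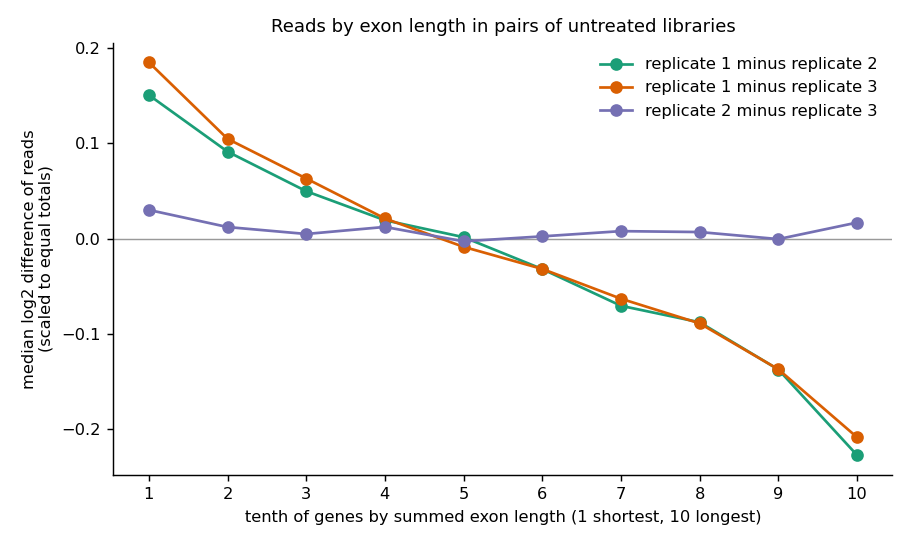
Median log2 difference of reads, at equal totals, between pairs of untreated libraries (y axis) in deciles of genes ordered by summed exon length (x axis, 1 shortest, 10 longest), 1 line per pair. Both lines that involve replicate 1 fall from 0.15 and 0.18 in the shortest decile to -0.23 and -0.21 in the longest, while the line for replicates 2 and 3 stays between 0.00 and 0.03.

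Of the 13173 protein-coding genes, 10563 (80.2%) had a level of at least 1 in each of the 3 libraries, and 10650 did so without replicate 1. The median level over all genes was 18.6, 1827 genes (13.9%) reached 100 in every library, and 111 reached 1000. The 10 genes with most reads took 6.30 ± 0.315% of protein-coding reads, and 6.13% without replicate 1. The 100 genes with most reads took 20.9 ± 0.571% (20.5% without replicate 1), and the first 1000 took 53.6 ± 0.561%.

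Genes of lysosomal and secreted degradative proteins, with that of the ferritin light chain, led the order of levels. Ctsd, which encodes the aspartic protease cathepsin D, had levels of 15827, 14937 and 15618 in replicates 1 to 3, a mean of 15460.5 ± 465. Lyz2, the lysozyme of macrophages, had 15001, 13825 and 14308, a mean of 14378 ± 591. Ftl1, the light chain of the iron store ferritin, had 14925, 13186 and 13615, a mean of 13909 ± 906. The ranges of Ctsd and Lyz2 overlapped, as did those of Lyz2 and Ftl1, but within each library the order was the same, Ctsd above Lyz2 above Ftl1. Psap, the precursor of the saposins that help lysosomal enzymes reach their lipids, had 11391, 11386 and 11753, a mean of 11510.1 ± 211, with every library below all libraries of the 3 genes above it. Ctsk, which encodes the collagen-cutting cathepsin K, followed at 8877 ± 247.

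The other genes among the 20 with the highest level fell into a few kinds. Further lysosomal genes were Ctsz (cathepsin Z, 6348 ± 165), Ctss (cathepsin S, 5211 ± 209), Cd68 (a heavily glycosylated lysosomal membrane protein, 5088 ± 211), Ctsb (cathepsin B, 4174 ± 75.9) and Gpnmb (a glycoprotein of lysosomes and melanosomes, 3655 ± 86.7). Fth1, the ferritin heavy chain, stood at 5752 ± 306. Lgals3, the secreted lectin galectin-3, stood at 5238 ± 299. B2m, the light chain of MHC class I, reached 4339 ± 251 and S100a1, a calcium-binding protein, 4106 ± 234. Housekeeping genes in this group were Eef1a1 (elongation factor, 4949.8 ± 122), Rplp1 (ribosomal stalk protein, 3982 ± 302) and Actb (beta-actin, 3723 ± 103). The mitochondrially encoded subunits mt-Co1 (7338 ± 356), mt-Nd1 (4739 ± 316) and mt-Cytb (4168 ± 374) complete it. In 19 of the 20 genes, all but Psap, replicate 1 had the highest level.

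**Figure D2:**
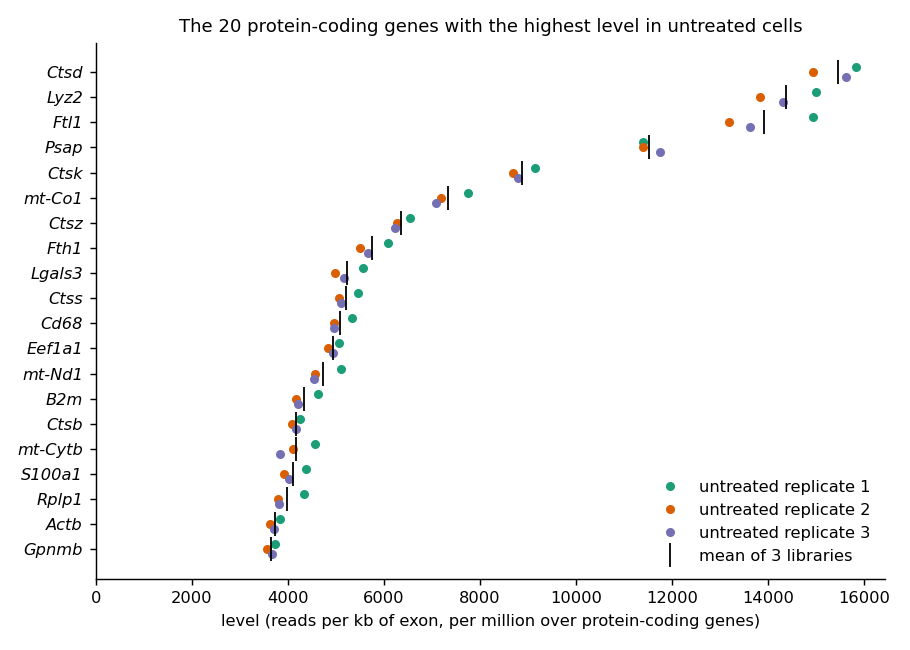
Level (reads per kb of exon, scaled to a sum of 1000000 over protein-coding genes, x axis) of the 20 protein-coding genes with the highest mean, 1 point per untreated library and a vertical mark for the mean. Ctsd, Lyz2 and Ftl1 lie between 13186 and 15827, Psap just below them, and the last of the 20, Gpnmb, at 3655.

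By reads, Ctsd again came first, with 101273, 105832 and 106824 reads in the 3 libraries (1.04% of protein-coding reads), followed by Psap (91020 on average), Ctsb (72739) and Gpnmb (68560). The 20 genes with most reads and the 20 with the highest level shared 13. Those that entered by reads alone had longer exons than those that entered by level alone: Mmp12, the macrophage elastase, with 53979 reads, Cybb, the catalytic subunit of the phagocyte NADPH oxidase, with 36646, Itgax, the integrin chain CD11c, with 34873, Lpl, lipoprotein lipase, with 31802, Mpeg1, the pore-forming perforin-2, with 30776, Ctnnb1, beta-catenin, with 30357, and Itgb2, the shared beta chain of leukocyte integrins, with 26804.

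The labelled cell type was checked against marker lists. All 26 alveolar macrophage markers were listed, 25 had a level of at least 1 in each library and 18 one of at least 100. Their summed level was 24588, 24021 and 24376 in replicates 1 to 3 (2.43 ± 0.0287% of the whole, 2.42% without replicate 1), of which Ctsk gave 36.5%. Siglecf, the surface lectin often used to gate these cells, had levels of 542, 531 and 536. Itgax stood at 2516 ± 117, Chil3 (the chitinase-like protein Ym1) at 1609 ± 11.2, Mrc1 (the mannose receptor) at 489.7 ± 40.03, Plet1 (a surface protein of these cells) at 226 ± 4.57 and Trim29 at 91.3 ± 3.89.

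A few textbook markers were low or nearly without reads. Marco, a scavenger receptor of alveolar macrophages, had 7, 8 and 11 reads, a level of 1.56 ± 0.351. Car4, a membrane-bound carbonic anhydrase, had 0, 0 and 2 reads. Krt79, a keratin gene often found in these cells, had a level of 2.68 ± 0.278, Krt19, another keratin gene, of 8.63 ± 1.51, and Cidec, a lipid droplet protein, of 7.80 ± 0.304. Fabp4, a fatty acid carrier, stood at 72.5 ± 6.12 beside 829 ± 55.99 for its relative Fabp5. Marco and Car4 thus lay near the lower limit of counting in libraries where Siglecf, Itgax and Chil3 were high.

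Marker lists of other cells were low by comparison. The interstitial macrophage list summed to 34.03 to 43.3 over 11 listed genes, with the complement gene C1qa at 7.26 and Mgl2, a lectin gene, with 1 read in 1 library only. For monocytes (6 of 10 listed) the sum was 110.1 to 125, led by Hp, which encodes haptoglobin, and for neutrophils (5 of 11) 117 to 133, led by S100a8 with 72.9. For dendritic cells (6 of 9) the sum was 7.27 to 8.03, led by Clec9a, whose span overlaps that of Clec1b. For T and NK cells (4 of 12) it was 307 to 338, of which Il7r, the IL-7 receptor, gave 99.6% and Cd4 a level of 0.370. None of the B cell, eosinophil, or mast cell and basophil markers was among the genes analysed here.

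Among structural cells, the alveolar type 1 list summed to 223 to 235, led by Pdpn, the surface glycoprotein podoplanin, at 126, while Ager, the receptor that defines type 1 cells, was at 0.745. The 3 listed alveolar type 2 markers summed to 144 to 159 and were the lipid pump gene Abca3 (73.7), the protease gene Napsa (73.1) and Etv5 (6.38), with the surfactant protein genes not analysed here. Airway epithelium summed to 30.05 to 31.03, led by Cdh1, with Krt8 under 0.5 read, and fibroblasts to 8.58 to 11.7, led by Pdgfra, with Col1a1 under 0.5 read. Endothelium summed to 25.8 to 34.03, of which Vwf gave 96.8%, with Pecam1 and Plvap under 0.5 read, and the only listed erythroid or platelet marker, Itga2b, was at 0.293. In bulk RNA, fewer cells of a type and less RNA per cell cannot be told apart, and the part of other cells in the levels below was not tested.

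**Figure D3:**
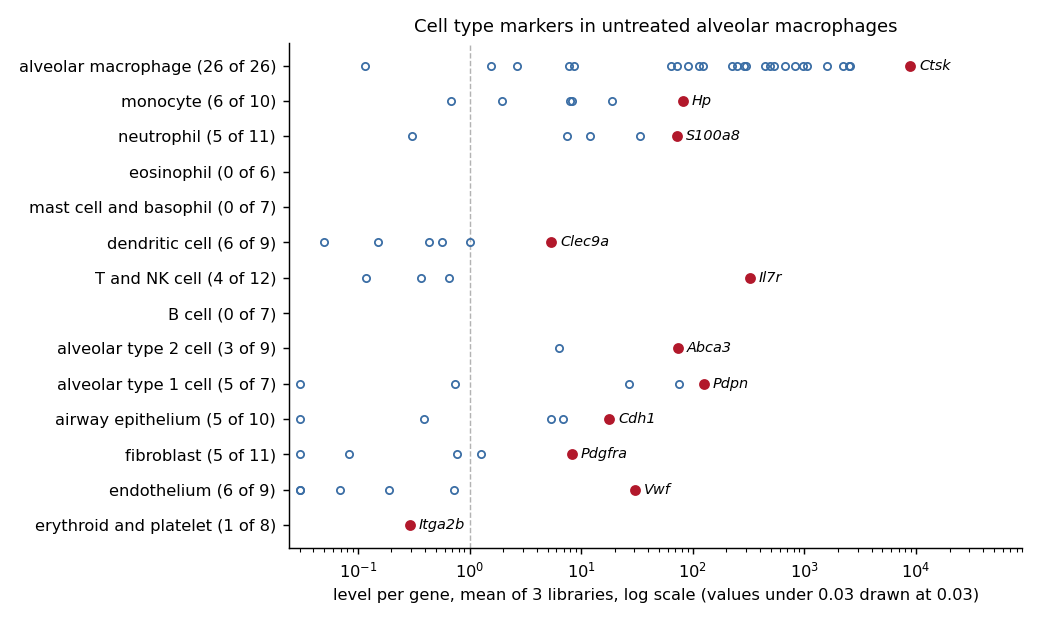
Mean level over the 3 untreated libraries (x axis, log scale) of each listed member of cell type marker lists (y axis, with the number listed of the number in the list, 0 for 3 of them), 1 circle per gene and the highest member filled and named. The dashed line marks a level of 1, and the lowest values are drawn at the left edge. The interstitial macrophage list is not drawn. Alveolar macrophage markers reach 8877, and the highest marker of any other list is Il7r at 325.

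The lysosomal gene lists (cathepsins, hydrolases, membrane proteins and vacuolar ATPase subunits) together had 82 genes, 76 of them listed. They took 8.19 ± 0.151% of the summed level, 8.04% to 8.34% over the libraries and 8.11% without replicate 1. Their median level was 359 beside 18.6 over all genes, and 58 of 76 (76.3%) reached a level of 100 in every library beside 13.9% of all genes. For scale, 95 genes picked by a symbol pattern of ribosomal proteins took 4.89 ± 0.306%. The pattern also fits symbols of S6 kinase genes, which do not encode ribosomal proteins. Reads counted to pseudogene copies, such as Rps2-ps10 with 2976 on average, lie outside this share.

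Many lysosomal promoters are known to hold the E-box-like CLEAR element, whose core is CACGTG and whose extended palindrome TCACGTGA contains that core. Promoter sequences are shown because these genes stood high together. In the 250 bases before the start site in RefSeq (GRCm38.p6), CACGTG, which reads the same on both strands, was present for 16 of the 60 lysosomal genes that matched by symbol (26.7%), beside 1854 of all 27025 gene symbols (6.86%) and 1022 of 10424 symbols of the protein-coding genes described here (9.80%). TCACGTGA was present for 6 lysosomal genes (10%), for 0.907% of all symbols and for 1.70% of the described symbols. The windows of Lamp1 (chr8:13158911-13159160, plus strand), Atp6v0b (chr4:117887334-117887579, minus strand) and Glb1 (chr9:114400828-114401075, plus strand) are printed without bases of annotated exons, and for Ctsd 30 bases around each of its matches (chr7:142388048-142388077 and chr7:142387908-142387937, minus strand), of which the second lies in an exon annotated by GENCODE. Capitals mark CACGTG, and all are written 5′ to 3′ on the strand of the gene.
Lamp1: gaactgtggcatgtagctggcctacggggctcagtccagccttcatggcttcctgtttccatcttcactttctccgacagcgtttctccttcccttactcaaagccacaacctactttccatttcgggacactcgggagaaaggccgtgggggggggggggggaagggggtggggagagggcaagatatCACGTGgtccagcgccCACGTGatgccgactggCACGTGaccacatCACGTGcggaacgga
Atp6v0b: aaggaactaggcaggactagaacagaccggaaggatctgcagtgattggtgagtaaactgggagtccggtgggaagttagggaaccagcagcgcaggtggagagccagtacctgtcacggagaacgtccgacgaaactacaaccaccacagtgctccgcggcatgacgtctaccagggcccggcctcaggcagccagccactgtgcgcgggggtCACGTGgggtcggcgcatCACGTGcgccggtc
Glb1: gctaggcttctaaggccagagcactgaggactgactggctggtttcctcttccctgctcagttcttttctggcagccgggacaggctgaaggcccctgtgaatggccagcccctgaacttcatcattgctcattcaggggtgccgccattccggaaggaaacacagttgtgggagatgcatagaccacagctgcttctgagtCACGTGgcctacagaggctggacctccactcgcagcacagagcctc
Ctsd, first match: tccccCACGTGacctgtatccagtcattct
Ctsd, second match: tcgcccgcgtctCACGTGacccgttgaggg
Lamp1 held 4 matches, first bases 61, 45, 28 and 15 before the start site, Atp6v0b held 2, at 36 and 18, Glb1 held 1, at 48, and Ctsd held 2, at 245 and 98. The other genes with a match were Arsa, Atp6v1a, Cln3, Ctsa, Ctsf, Ctsl, Gaa, Gla, Lgmn, Mcoln1, Naglu and Sgsh. Some of the windows lay largely in annotated exons, so not all matches lie in sequence free of exons. Exon bases numbered 250 of 250 for Cln3, 211 for Ctsd, 197 for Gla and 164 for Ctsa, and 0 for Lamp1 and Lgmn. Among the 60, the median level was 586 with a match and 338 without, and over the 10424 described symbols 27.96 and 18.98. A match describes the letters in these windows and is not a measured binding site.

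Cathepsins, the main proteases of the lysosome, summed to a level of 43410.3 ± 1164 over 12 of 14 genes, 4.34% of the whole and 4.28% without replicate 1. Ctsd gave 35.6% of that sum. The order continued with Ctsk (8877), Ctsz (6348), Ctss (5211), Ctsb (4174), Ctsa (the carboxypeptidase that also protects beta-galactosidase, 1898 ± 52.2), Ctsl (1046 ± 31.6), Ctsc (which activates granule proteases, 201 ± 3.88) and Ctsh (123 ± 1.63). Ctso, Ctsf and Ctse lay between 8.14 and 35.1. No neighbours in this order overlapped over the 3 libraries. Of the cystatins, which inhibit cathepsins, Cstb (cystatin B) had levels of 3887, 3493 and 3353 and Cst3 (the secreted cystatin C) of 1824, 1645 and 1631, while Cst6 and Cst7 were at 0.704 and 0.228. The Ctsd gene lies on chromosome 7, bases 142375911 to 142388038 (mm10, minus strand), Ctsk on chromosome 3, bases 95499256 to 95509362 and Psap on chromosome 10, bases 60277627 to 60302597, and values are sums over whole genes.

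All 29 lysosomal hydrolase genes were detected, and 21 reached a level of 100 in every library. Hexa, the alpha chain of beta-hexosaminidase, led with 2139, 2087 and 2081, a mean of 2102 ± 31.8. Lipa, which frees cholesterol from its esters, stood at 1156 ± 21.7, Lgmn, an asparagine-specific protease, at 1074 ± 14.3 and Gusb, beta-glucuronidase, at 974 ± 25.6. Pla2g15, a lysosomal phospholipase that degrades surfactant lipid, stood at 250.4 ± 1.05. The remaining 24 ran from 17.2 (Arsb, arylsulfatase B) to 652 (Naglu). The first 4 did not overlap over the libraries, whereas Naglu overlapped Acp5. Further down, Neu1 overlapped Gaa, Gaa overlapped Fuca1 and Fuca1 overlapped Asah1.

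Among vacuolar ATPase genes (20 of 23 listed, summed level 11660.0 ± 101), the tissue-restricted subunit Atp6v0d2, which is also an alveolar macrophage and osteoclast marker, led with 2239.8, 2149 and 2272. Atp6v1g1 followed at 1202 ± 23.6 and Atp6v0d1, the widely expressed counterpart of Atp6v0d2, at 1009 ± 34.1. The membrane a subunits were led by Tcirg1 (a3, 608 ± 11.99), above Atp6v0a1 (301 ± 15.7) and Atp6v0a2 (52.7 ± 6.22). The lowest member was Atp6v1g2 at 2.62, whose span overlaps that of Nfkbil1 on the other strand. Of the lysosomal membrane proteins (15 of 16 listed), Cd68 had levels of 5332, 4966 and 4968 and Lamp1 of 3289.8, 3202 and 3295. Lamp1 stood above Lamp2 (297 ± 11.1) in every library. Laptm5 (1516 ± 21.96), which sends receptors to lysosomes, and the tetraspanin Cd63 (1472 ± 69.7) overlapped each other. The cholesterol transporters Npc2 and Npc1 stood at 685 ± 16.7 and 125 ± 8.52, and the calcium channel Mcoln1 at 141 ± 5.32.

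Iron storage genes were among the highest of all. Ftl1 gave 70.7% of the summed ferritin level, above Fth1 without overlap, although by reads Fth1 (57394) stood just above Ftl1 (53587). Of the other iron and haem genes (15 of 16 listed), Slc11a1, the metal pump NRAMP1 of phagosomes, stood at 621 ± 19.7 and overlapped Hmox1, the inducible haem oxygenase, at 593 ± 9.32. Slc48a1, which carries haem out of the phagolysosome, stood at 511 ± 4.03. Genes of cellular iron uptake and export were lower, with Tfrc, the transferrin receptor, at 14.1 ± 2.13 and Slc40a1, the iron exporter ferroportin, at 3.15 ± 0.0201. Lyz2 gave 99.9% of the summed lysozyme level, and its neighbour Lyz1, a close paralog whose reads counting could split, had 17.2.

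Of the genes of lipid uptake and storage, a few leaders were high while the median over 8 listed lipid droplet genes was 13.8. Plin2, which coats lipid droplets, had levels of 1521, 1448 and 1557, a mean of 1509 ± 55.7, and gave 75.5% of the lipid droplet list, ahead of Plin3 (357 ± 3.48) and Hilpda (95.9 ± 4.79). Cd36, a receptor for oxidised lipid and fatty acids, stood at 1556 ± 35.2. Lpl, which releases fatty acids from triglyceride, stood at 1052 ± 34.1 per kb of all its exons and at 2043 by its longest transcript. Fabp5 gave 85.8% of the fatty acid carrier list, above Fabp4 and Fabp7 (56.3 ± 5.21).

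Of the genes that handle surfactant lipid and cholesterol, the sterol exporter Abcg1 stood at 299.7 ± 7.96, and Abca1, another exporter, at 9.52 ± 1.43, well apart in every library. Soat1, which esterifies cholesterol, overlapped Abcg1 at 286 ± 9.26, and Nceh1, which hydrolyses those esters, stood at 353 ± 22.2. Apoe, an apolipoprotein high in many other macrophages, had 128, 129 and 104, with replicate 3 below the others, and the small apolipoproteins Apoc1 and Apoc2 stood at 4.05 and 4.31. The receptor Lrp1 stood at 461 ± 91.3. For Lrp1, a long gene, replicate 1 (357) lay below replicates 2 and 3 (528 and 499).

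The receptors of GM-CSF, the growth factor of these cells, stood above that of M-CSF. Csf2ra, the specific alpha chain, had levels of 1010.5, 951 and 936, a mean of 966 ± 39.4. Csf2rb, the signalling beta chain shared with IL-3 and IL-5, had 615, 695 and 721, and its mouse-specific relative Csf2rb2 422, 456 and 478. Csf1r, the receptor of M-CSF and IL-34, had 159.8, 168 and 162, below all libraries of the 3 chains above. Csf2rb and Csf2rb2 are close paralogs, so reads could be split between them. Csf3r, the G-CSF receptor, stood at 12.1, and the only ligand listed, Csf1, at 7.44.

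Integrin genes were led by the chains of CD11c/CD18. Itgax, with levels of 2385, 2554 and 2610.5, gave 81.7% of the integrin alpha level, followed by Itgal (CD11a, 254 ± 17.1), Itga5 (the fibronectin receptor chain, 166 ± 12.9) and Itgam (CD11b, 106 ± 14.2). Itgam, high in monocytes and most other macrophages, lay below Itgax in every library. Of 16 listed alpha chains, 10 had a level below 1 in at least 1 library. Itgb2, which pairs with Itgax, Itgal and Itgam, gave 79.3% of the beta chain level (2981, 3059.96 and 3097), above Itgb1 (512 ± 40.4) and Itgb5 (280.1 ± 8.61). Of the tetraspanins, which organise membrane proteins, Cd9 led at 2559 ± 68.5, ahead of Cd63 and Cd53 (992 ± 24.2).

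Of the Siglecs, sialic acid-binding receptors that mostly inhibit signalling, Siglecf (536 ± 5.38) led, ahead of Cd22 (423, 440.3 and 436), best known from B cells, and Cd33 (113 ± 9.22). Siglec1, the sialoadhesin of other tissue macrophages, stood at 5.27. The C-type lectins were led by Clec4d (Dectin-3, 787 ± 32.3), Clec4n (Dectin-2, 579 ± 13.9) and Mrc1 (489.7 ± 40.03), which bind fungal or mannose-rich glycans. Clec4e (Mincle), which sits beside Clec4d in the genome and recognises mycobacterial glycolipid, stood at 109 ± 9.36, and Clec10a at 0.204. Clec7a (Dectin-1) carries another biotype than protein-coding in the tables and was not ranked with these genes. Members of the Clec4 cluster are similar in sequence, and their reads may have been shared.

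Fc receptor genes were led by the signalling gamma chain Fcer1g, at 1392, 1273 and 1208, and the low-affinity activating receptor Fcgr3, at 863, 769 and 775. The neonatal receptor Fcgrt stood at 189 ± 4.97, the inhibitory Fcgr2b at 31.98 ± 0.914 and the high-affinity Fcgr1 at 4.61 ± 0.444. Among scavenger receptors other than Cd68 and Cd36, the receptor kinase Axl, which binds dying cells through Gas6, stood at 358 ± 17.4 and its relatives Mertk and Tyro3 at 26.3 ± 1.05 and 0.333. Olr1, a receptor of oxidised lipoprotein, overlapped Axl at 336 ± 30.01. Msr1, the class A scavenger receptor, stood at 35.8 ± 2.51, above Marco.

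Toll-like receptor levels were led by Tlr2, the receptor of bacterial lipoprotein, at 262, 291 and 285. Tlr13, which senses bacterial ribosomal RNA in mice, stood at 253 ± 13.1, and the RNA sensors Tlr7 and Tlr8 at 137 ± 13.3 and 101 ± 15.2. Tlr4, the endotoxin receptor, stood at 43.2 ± 4.67, and Tlr9, the sensor of CpG DNA, at 0.265. Of their partners, the endotoxin co-receptor Cd14 led at 522 ± 4.76, above Unc93b1, which brings nucleic acid sensors to endosomes, at 407 ± 8.76. The kinase gene Irak1, the adaptor Myd88 and Ly96 (MD-2) stood at 142 ± 7.29, 94.7 ± 1.30 and 40.1 ± 4.21.

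Receptors for the cytokines given to the other groups were measured at baseline. For IL-13, the shared chain Il4ra had levels of 13.7, 15.3 and 16.4 and Il13ra1 of 67.7, 79.6 and 76.1, with no overlap, and replicate 1 lowest in both. For IL-17A, Il17ra had 43.5, 47.04 and 47.3, while its partner Il17rc had 2, 4 and 6 reads. For IL-33, Il1rl1, which encodes ST2, had 1, 1 and 0 reads and its shared partner Il1rap a level of 6.83 ± 0.660. Il33 itself had 1, 0 and 2 reads. Il1rl1 and Il17rc thus lay at the lower limit of what this depth can measure.

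Of other cytokine receptors, Il7r, better known from lymphocytes, had 306, 337 and 332, and Il2rg, the shared gamma chain with which it pairs, 237, 235 and 232. Tgfbr2 and Tgfbr1, the TGF-beta receptor kinases, stood at 488 ± 40.8 and 218 ± 23.1, ahead of the activin receptor Acvr1b (59.9 ± 4.69). Il11ra1 (276), which has near-identical copies in the mouse genome, is uncertain. The interferon-gamma receptor chains Ifngr2 and Ifngr1 stood at 177 ± 4.24 and 106 ± 1.29, and Il10rb and Il10ra at 151 ± 2.04 and 29.1 ± 0.839. Tnfrsf1b, a receptor of TNF, led its family at 608 ± 37.95, above Tnfrsf1a (260.4 ± 10.7) and Tnfrsf26 (154 ± 1.87).

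Chemokine receptors were led by Cxcr1 (497, 579 and 564) and Cxcr4 (505, 508 and 513), which overlapped and bind neutrophil-drawing chemokines and Cxcl12 respectively. Ccr1 stood at 137 ± 3.42 and the decoy-like Ccrl2 at 107 ± 4.33. Ccr2 and Cx3cr1, receptors of monocytes, stood at 0.684 and 1.59. Of the chemokines, Ccl6 led the CC family at 195, 176 and 155, ahead of Ccl9 (74.1 ± 6.35) and Ccl3 (72.6 ± 5.16), which overlapped. Cxcl14 and the membrane-bound Cxcl16 led the CXC family at 193 ± 2.46 and 158 ± 5.79, and the neutrophil-drawing Cxcl2 and Cxcl1 stood at 11.5 ± 2.51 and 5.10 ± 1.07. Ccl24 and Ccl17 had under 0.5 read in every library.

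Cytokine genes covered a wide range. In the interleukin-1 family, Il18 (272, 229 and 228) and Il1a (142, 144 and 147) stood above Il1rn, the receptor antagonist, at 101, 120.02 and 119, and Il1b had 6.74, 5.39 and 6.85. By reads or deposited TPM, Il1rn came first in this family. Tnf had 66.4, 74.7 and 69.2, a mean of 70.1 ± 4.25. Tnfsf12 (TWEAK) and Tnfsf13 (APRIL) stood at 472 and 323, but are uncertain because both overlap a readthrough gene, Tnfsfm13, with 1149 reads on average. Of the growth factors, Grn, which encodes the lysosomal and secreted progranulin, had 1382, 1354 and 1398 and gave 77.4% of the list. Tgfb1 stood at 196 ± 5.19, Vegfb at 140.3 ± 2.95 and Igf1 at 16.7 ± 0.00654.

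Jak1 and Stat6 led the kinases and factors that act below cytokine receptors. Jak1 led the JAK kinases at 129, 151 and 151, ahead of Tyk2 (65.6 ± 5.30), Jak2 (31.4 ± 1.95) and Jak3 (7.28 ± 0.964), with no overlap. Stat6, which acts for IL-4 and IL-13, led the STAT factors at 190.05, 209 and 221, followed by Stat3 (71.4 ± 5.61) and Stat5b (54.8 ± 7.19). Replicate 1 was lowest for both Jak1 and Stat6, whose exons sum to 7227 and 4402 bases, and the span of Stat6 overlaps Nab2 on the other strand (605 reads). The feedback inhibitors of the SOCS family were low: Socs4 and Socs5, whose ranges overlapped, led at 27.1 ± 4.78 and 21.7 ± 2.62, ahead of Socs7 (15.5 ± 2.57), and the inducible members Socs1, Socs2, Socs3 and Cish stood at 2.17, 1.68, 1.32 and 0.338. Cish had 5, 12 and 2 reads. Among NF-kB genes, Nfkbia, the inhibitor that NF-kB itself induces, led at 163 ± 13.3, above Rela at 122 ± 1.85 and Nfkbib at 91.9 ± 6.92.

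Cebpb, which encodes C/EBP-beta, led the listed transcription factors. Cebpb had levels of 1261, 1240.1 and 1281 and Cebpa of 859, 899 and 930.5, with no overlap, although the span of Cebpb overlaps Tmem189 on the other strand (5261 reads) and strand use is not known. Cebpg followed at 88.3 ± 6.58. Spi1, which encodes PU.1, had 596, 562 and 573 and gave 62.5% of the ETS list, ahead of Elf4 (59.9 ± 7.86) and Elk3 (43.2 ± 1.57). Id2, an inhibitor of helix-loop-helix factors, stood at 906 ± 35.2. Bhlhe41 and Bhlhe40, repressors that support self-renewal of alveolar macrophages, stood at 444 ± 14.998 and 413 ± 20.99 and overlapped.

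Pparg, the nuclear receptor that sets the identity of these cells, had 130.3, 118 and 124, and overlapped the liver X receptor Nr1h2 (133 ± 8.66), which in turn overlapped Rxra (134 ± 13.7), the dimer partner of both. Nr1h3, the other liver X receptor, stood at 50.1 ± 0.974. Klf6 and Egr2 led the Kruppel-like and EGR factors at 235 ± 19.8 and 209 ± 9.60 and overlapped, ahead of Klf13 (72.9 ± 8.89), Egr1 standing at 1.87. The stress factor Atf3 had 746, 734 and 769, above Jund (649 ± 20.9) and Atf4 (373 ± 5.17), and Fos and Fosb stood at 77.7 ± 2.89 and 0.128. Maf, which restrains self-renewal in other macrophages, stood at 1.78 ± 0.539. Irf5 (108) and Irf8 (107) overlapped at the head of the interferon regulatory factors, Irf5 lying over Tnpo3 (995 reads) on the other strand, ahead of Irf3 (57.4 ± 7.09).

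B2m and H2-D1 led the MHC class I and loading list, of which 4 of 13 listed genes reached 100 in every library. B2m had levels of 4628, 4174 and 4216, H2-D1 of 2299, 2179.7 and 2075 and the loading factor Tapbp of 484 ± 8.28. H2-K1, a heavy chain like H2-D1, had 43.6, 41.9 and 44.3, below H2-D1 in every library. BALB/cJ mice carry another MHC haplotype than the mouse of the reference genome, so reads of these polymorphic and similar genes may have been lost or shared, and this was not tested. Cd74, the invariant chain of class II, had 232, 209.9 and 188, ahead of H2-DMa, a loading factor, at 26.3 ± 2.26, while H2-Ab1 stood at 8.30 ± 1.32 and H2-Aa and the class II activator Ciita had 5, 7 and 3 and 3, 10 and 6 reads. Of costimulatory and inhibitory molecules, Sirpa, the receptor of CD47, led at 1074, 1133 and 1155, ahead of the inhibitory receptor genes Lilrb4a (582 ± 8.20) and Vsir (272 ± 16.2), Cd274 (PD-L1) stood at 129 ± 6.24, Cd80 and Cd86 at 3.97 ± 0.713 and 2.38 ± 0.778, and Cd40 had under 0.5 read. Complement components were led by C3 (285 ± 18.5) and Cfb (215 ± 13.2), with C1qa, C1qb and C1qc between 1.25 and 7.26.

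Mmp12 and Chil3, which encode secreted proteins, gave most of the level of their families. Mmp12 had levels of 2629, 2536 and 2605 and gave 94.6% of the metalloproteinase level, ahead of Mmp19 (62.6 ± 1.76), Mmp8 (33.9 ± 1.25) and Mmp13 (32.4 ± 6.18). Of the inhibitors, Timp2 stood at 117 ± 1.59 and Timp1 at 0.521. Gpnmb (3726, 3559 and 3681) and Spp1 (osteopontin, 951, 951 and 932) led the matricellular list, with Sdc3 (syndecan 3) next at 90.8 ± 10.4 and Fn1 (fibronectin) at 8.21. Chil3 (1622, 1601 and 1604) was the only one of 3 listed members of its family with reads, its close relative Chil4 having under 0.5 read. Of the eosinophil-associated ribonucleases, Ear2 and Ear1 had 339, 261 and 269 and 74.5, 64.1 and 54.6, but these copies are near-identical and the split is uncertain. Rnaset2a, a lysosomal ribonuclease gene of the same list, stood at 70.8 ± 1.41. Anxa5 (3081 ± 103) led the annexins, ahead of Anxa1 (1346 ± 24.8) and Anxa2 (662 ± 17.8), Lgals1 (1568 ± 90.3) and Lgals3bp (313 ± 8.57) followed Lgals3, and S100a11 (1748 ± 149.8) and S100a10 (462 ± 14.5) followed S100a1, with S100a6 and S100a4 at 4.75 and 3.59.

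Oxidant genes of phagocytes were high. Cyba (p22phox) had levels of 3804, 3527 and 3484 and Cybb (gp91phox) of 2009, 2289 and 2255, the membrane subunits of the NADPH oxidase, above the cytosolic Ncf4 (531 ± 11.3) and Ncf1 (180.5 ± 8.51). Of the enzymes that remove peroxides, Prdx1 led the peroxiredoxins at 1917 ± 72.6, ahead of Prdx5 (693 ± 24.6) and Prdx2 (128 ± 10.8), and Txn1 (1917 ± 107), Gpx1 (1269.9 ± 86.8) and Gpx4 (658 ± 33.3) the thioredoxin and glutathione genes. Of the eicosanoid genes, Alox5ap, the partner of 5-lipoxygenase, led at 261 ± 16.8, above Ptges3 (221 ± 6.59), Lta4h (63.7 ± 2.50) and Alox5 (42.5 ± 1.03), and the inducible cyclooxygenase Ptgs2 stood at 0.475. Hcar2 (131 ± 2.92), a receptor of butyrate and niacin, and Ptafr (127 ± 11.4), the receptor of platelet-activating factor, overlapped at the head of the lipid mediator receptors, above Fpr2 (42.1 ± 3.89).

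Leaders of cell maintenance families gave differing shares of their family's level, from 17.2% for Actb to 87.5% for Hk3. Actb and the actin sequestering Tmsb4x (3092 ± 215) led the cytoskeletal list, followed by Capg (1914 ± 61.3), which caps actin filaments, and Actg1 (1911 ± 31.2), which overlapped. Tuba1b (635 ± 14.96) led the tubulins, ahead of Tubb5 (433 ± 5.20) and Tubb4b (304 ± 6.98), and Hsp90ab1 (1485 ± 43.5) the heat shock proteins, ahead of the endoplasmic reticulum chaperones Hspa5 (1063 ± 34.7) and Hsp90b1 (889 ± 28.2), with the inducible Hspa1a and Hspa1b at 1.74 and 0.655. Hk3 gave 87.5% of the hexokinase level at 533, 583 and 594, above Hk2 (60.7 ± 6.15) and Hk1 (20.6 ± 2.06). Slc2a6, a lysosomal sugar transporter, and Slc2a1 overlapped at 138 ± 5.50 and 129.6 ± 6.80, above Slc2a8 (22.7 ± 2.51). Aldoa led the glycolytic enzymes at 1595 ± 47.1, ahead of Pkm (894 ± 19.9) and Gapdh (871 ± 41.2), which overlapped. P2rx4 (181 ± 3.61), an ATP-gated channel of lysosomes, led the purinergic receptors, ahead of P2ry2 (76.8 ± 6.02) and P2ry6 (50.3 ± 2.62). Car13 (96.01 ± 10.7) led the carbonic anhydrases, ahead of Car5b (17.2 ± 1.23) and Car9 (10.9 ± 0.438). Proliferation genes were low apart from Pcna (297 ± 9.56), which also serves DNA repair: Mki67 stood at 1.27 ± 0.303, Top2a at 0.977, Mcm5 at 10.8 ± 1.36 and Ccnd2 at 12.9 ± 0.845.

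All 13 mitochondrially encoded subunits were detected, but their levels differed widely. mt-Co1, mt-Nd1 and mt-Cytb stood between 4168 and 7338, and mt-Nd2, mt-Nd5, mt-Nd4 and mt-Nd6 between 1525 and 2497. mt-Co2, mt-Co3 and mt-Atp6 were at 191 ± 31.02, 143 ± 19.5 and 109 ± 16.8. Lower still, mt-Nd4l, mt-Nd3 and mt-Atp8 stood between 10.7 and 23.7. mt-Co2, mt-Co3 and mt-Atp6 have nuclear copies on chromosome 1 that match nearly all of their transcript at 100% identity over 681, 783 and 678 bases. Gm28661, the copy of mt-Co2, held 453 reads on average beside 375 for mt-Co2, Gm28437 332 beside 322 for mt-Co3, and Gm10925 192 beside 212 for mt-Atp6. Nearly full copies of mt-Nd4l and mt-Nd3 also held reads. Gm10222 had 22 beside 20 for mt-Nd4l, and Gm28438 25 beside 18.7 for mt-Nd3. In all, 8 of the mitochondrial genes had a full or partial copy, mt-Co1, mt-Nd2 and mt-Nd4 among them. Levels of genes with such copies are uncertain, and how reads with several matches were counted is not given in the sources used here. mt-Nd6 lies on the other strand from mt-Nd5 and touches it, so its level is uncertain too.

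**Figure D4:**
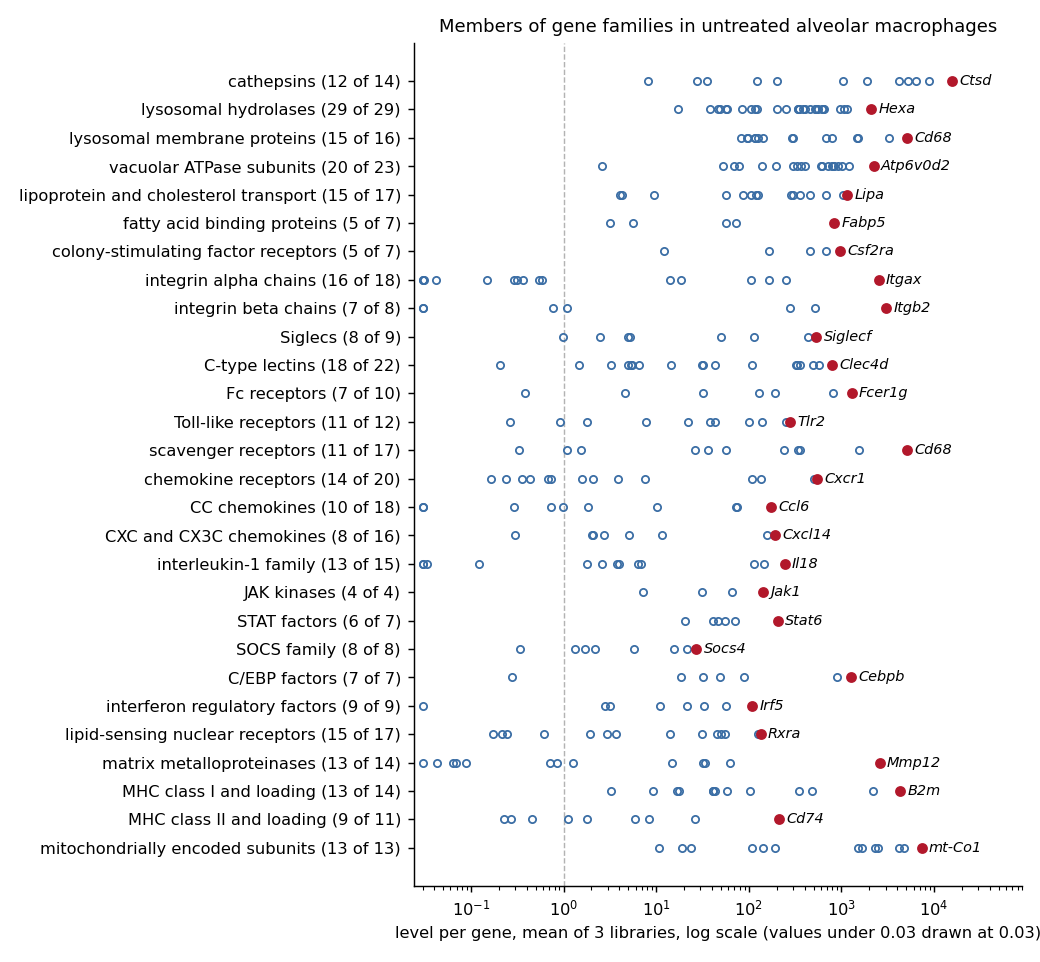
Mean level over the 3 untreated libraries (x axis, log scale) of each listed member of 28 gene families (y axis, with the number listed of the number in the family), 1 circle per gene and the highest member filled and named, with the dashed line at a level of 1 and the lowest values at the left edge. The leaders run from Socs4 at 27.1 to Ctsd at 15460.5.

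Over 70 families with at least 2 listed members, the highest member gave more than 50% of the family's level in 32. Of 568 pairs of neighbours among detected members, 433 did not overlap over the 3 libraries and 135 did. The overlap sets libraries of a pair against each other, and 44 of the 135 pairs had the same order within each of the 3 libraries. The scale changed which member came first in part of the families. By reads the first member was the same in 42 of 70 families, by deposited TPM in 49, and by level per kb of the longest transcript in 66. Without replicate 1 it was the same in 69, Ptafr taking the place of Hcar2. Of 799 listed genes in these families and lists or named here, 237 overlapped another listed gene by their spans, and 71 did so with a partner of at least as many reads. Where strand was not used in counting, reads of such partners cannot be told apart.

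Deposited TPM and level ranked genes with a Spearman rho of 0.914 across 13014 genes with reads, and of 0.808 across those with a mean of at least 100 reads; both share the same reads. By deposited TPM, Ftl1 came first (27904), then mt-Co1 (21328), mt-Nd1 and Fth1, while Ctsd (8713) came 8th. Changes in rank from TPM to level were taken among genes with that many reads, ranked within these genes only. The largest gains were those of Slc39a11, a zinc transporter, from 7678 to 1151, and Mrps28, a mitochondrial ribosomal protein, from 8272 to 1929. Bckdhb, Pcbd2 and Tbc1d22a came next, and the spans of these gaining genes were 83.03 to 156 times their exons. Slc39a11 had a TPM of 3.92 and a level of 163 ± 8.70. Among all genes with that many reads, the largest losses were those of Jrkl, Fzd8, Mrpl32, Sft2d3 and Arl16, for which span and summed exons were equal. Jrkl had a TPM of 39.02 and a level of 13.4 ± 0.184.

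**Figure D5:**
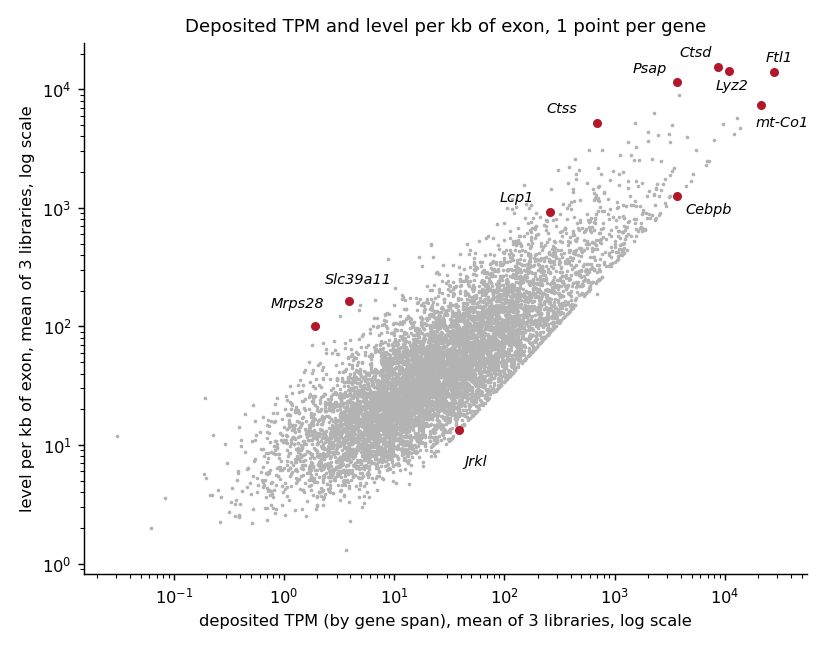
Deposited TPM (x axis, log scale) against level per kb of exon (y axis, log scale), means of the 3 untreated libraries, 1 point per protein-coding gene with a mean of at least 100 reads. Genes without introns, such as Jrkl, lie on the lower edge, and genes whose introns make up nearly all of the span, such as Mrps28 and Slc39a11, lie far above it.

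The 3 libraries differed little for most genes. The coefficient of variation (CV) of reads at equal totals had a median of 6.001% over the 8654 genes with a mean of at least 100 reads, and of 2.94% over replicates 2 and 3. Of the 100 genes with the highest variance over mean, replicate 1 was lowest in 59 and highest in 41, beside 82.8% of the 8654 genes in which it was either. All 59 in which it was lowest had summed exons longer than the median of the 8654 genes, 4715.5 bases. Lars2, a mitochondrial leucyl-tRNA synthetase gene, was first, with 2073, 3697 and 6404 reads. The ribosomal RNA gene CT010467.1, on another chromosome and not protein-coding, had 16744, 19899 and 23906 reads, also highest in replicate 3 and lowest in replicate 1. Its part in the spread of Lars2 was not tested. Hipk2, a kinase gene, had 1348, 4041 and 3967 reads, low in replicate 1 alone. The long genes Lrp1 (17232, 28175 and 25737), Plxna1 (9261, 14215 and 14384), Flna (9445, 14435 and 13881) and Dst (2717, 5046 and 4802) were also lowest in replicate 1. Ftl1 (54433, 53248 and 53080), Fth1, Ctsd and Lyz2, short and abundant, were highest there at equal totals, with CVs of 5.51% to 9.56%.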

How the data were processed

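Total RNA of the 3 untreated libraries was purified on columns, per the labels' protocols, and read on a NovaSeq. Reads were aligned to mm10 with STAR, per the submitters' processing notes. Not given in the sources used here were its version, the counting tool and whether strand was used. The deposited tables hold TPM, which the authors computed with the Length column: in every table TPM summed to 1000000, and Length equalled the span from start to stop for all 17017 genes, per the file headers and values. The members and the gene lists were chosen with earlier results of these data known.

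Reads were recovered as TPM multiplied by Length, divided by the step of 1 read in that library. Of genes with up to 20 reads, 90.98% to 91.4% lay within 0.05 of a whole read, where 10% would by chance. The step was fitted to make this share highest, so the 10% holds only for a step set beforehand. Precision is limited by these counts and by the number of libraries. Exon lengths (union of exons, and longest transcript as an alternative) came from GENCODE M21 for mm10, which held 16998 of 17017 identifiers, and 9 protein-coding genes without exons there were left out. Where 21 symbols had several identifiers, the one with most reads was used. Means, SDs and CVs were computed with pandas 2.3.3 and numpy 2.4.6 under Python 3.11.15, rank correlations with scipy 1.17.1, and nuclear copies of mitochondrial genes were found with blastn 2.17.0. The computation was tested on simulated data. Neighbours in an order were called apart where their ranges over the libraries did not overlap, since 3 against 3 libraries cannot give an exact p below 0.1. Named were the 20 genes with most reads and with the highest level, the alveolar macrophage markers, the leader of each other marker list and its members at 0, the 3 highest members of each family with reads and members that other lists hold, the last only in part, the 10 most dispersed genes, and the 5 that gained and 5 that lost most rank; further family members were named after their values were seen. Promoter sequences came from RefSeq (GRCm38.p6). The 21 libraries of stimulated groups were not used, and a few genes of the lists are not reported here. Alternatives were other lengths, scalings, thresholds and each library left out.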

Additional observations from a re-analysis of the deposited data

Results flagged for a closer look

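Genes with another biotype than protein-coding lie outside the levels above, and the 10 with most reads in the untreated libraries are given here as mean reads over the 3 libraries. The ribosomal RNA gene CT010467.1 had 20183. The long noncoding RNA genes Neat1 and Malat1, which act in the nucleus, had 15582 and 6202, and AU020206, also a long noncoding gene, had 6228. Clec7a, which encodes the beta-glucan receptor Dectin-1 and is annotated as a polymorphic pseudogene, had 10106, a level of 1329.9 ± 16.7 on the scale used for protein-coding genes, above Clec4d. Ifi30, which encodes a lysosomal thiol reductase of antigen processing and is annotated as a processed transcript, had 2687. The pseudogenes Gpr137b-ps, Rps2-ps10, Gm15459 and Gm8730 had 4579, 2976, 2317 and 2282, and reads of such copies cannot be told apart from those of their parent genes where the sequences are the same.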

How the results depend on the processing

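Length and scaling moved the shares of the level more than the libraries did. By the longest transcript and by deposited TPM, the alveolar macrophage markers took 2.26% and 1.66% of the level, beside 2.43%. The lysosomal lists took 7.42% and 5.93%, beside 8.19%. Without mitochondrially encoded genes and genes of the ribosomal protein symbol pattern, these shares were 2.63% and 8.84%. With each library left out in turn, these shares ran from 2.42 to 2.45% and from 8.11 to 8.26%, detected genes from 10616 to 10650, and families with the same first member from 68 to 70. The median CV ran from 2.94 to 6.15%, and was 2.94% without replicate 1. Detected genes numbered 10541 by the longest transcript and 10003 by deposited TPM. Of 253 named levels, 7 rose by over 1.5 times by the longest transcript (Lars2, Lpl, Il1rn, H2-Ab1, Pkm, Irf8 and Hk1), and by deposited TPM 53 were over 1.5 times higher and 131 over 1.5 times lower. No paired analysis was possible because the untreated libraries were compared with no other group. Genes of a few reads are limited by depth, and strand and the source of the replicates are not known.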
